A study of Rattus norvegicus with 20 samples.

Results

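The comparison described here sets the livers of 3 male Harlan Sprague-Dawley rats given isodecyl diphenyl phosphate (IDDP) at 263.6 mg/kg body weight against those of 5 vehicle rats. The 8 arrays were chosen by the dose in their labels, out of 20 arrays in the study. All 20 rats were gavaged once a day on 4 days with corn oil, which carried IDDP in the treated groups, and liver was taken on day 5. The study's protocol rounds the dose to 264 mg/kg, equal to 0.675 mmol/kg. It was the middle one of 5 doses, with 3 rats each at 66, 132, 527.1 and 1054.2 mg/kg beside it. RNA came from pieces of the left lobe of each liver, and 100 ng per rat was labelled for 1 Affymetrix array. The rats' age is not given in the labels, and the comparison covers a single sex, strain and sampling day. Each array is a different rat, so the p-values measure the spread between rats. Values are deposited log2 intensities per probe set, so a difference of 1 is a doubling of signal.

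IDDP belongs to the aryl and alkyl phosphate esters, which soften plastics and retard fire. In rat liver, lipophilic foreign compounds are commonly sensed by the nuclear receptors CAR and PXR, which switch on cytochrome P450, esterase, conjugation and transporter genes. Reactive or oxidising compounds can also free the factor NRF2, which binds antioxidant response elements and raises glutathione transferases and quinone reductases. Liver genes additionally follow the circadian clock, in which the repressors REV-ERB alpha and beta (Nr1d1, Nr1d2) oppose the activator pair of which Bmal1 is a part.

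The tissue label was checked against its defining markers. Alb, the main plasma protein made by hepatocytes, read 15.30 to 15.35 on the log2 scale in vehicle rats and 15.34 to 15.35 at 263.6 mg/kg. The 9 measured hepatocyte markers averaged 14.42 to 14.49 in the vehicle rats and 14.33 to 14.36 in the treated rats. Of these, 0 of 9 passed the test, with 2 of 9 at an unadjusted p under 0.05. A change below 0 was seen in 8 of 9, beside 46.3% of all genes read at 1 probe set, and the median was -0.07. In 5 of 9 every treated rat was below every vehicle rat, beside 4.18% of all tested probe sets. Array medians lay between 6.32 and 6.41 over all arrays, and Pearson's r between any 2 of the 8 arrays was 0.986 to 0.996 across probe sets. Control probe sets at both ends of the actin and Gapdh transcripts gauge degradation, since broken RNA reads higher at the 3' end than at the 5' end. That 3' minus 5' difference was 1.64 ± 0.27 (SD, n = 5) in vehicle and 1.92 ± 0.48 (SD, n = 3) at 263.6 mg/kg. The groups differed by 0.28 (exact permutation test, two-sided p = 0.375, over 56 splits), and rat 2 of the treated group was the highest of the 8 at 2.47.

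At 263.6 mg/kg, 133 of 31042 probe sets passed the test against vehicle (limma, Benjamini-Hochberg adjusted p under 0.05), which is 0.428% of those tested. Of these, 85 were higher (0.274%) and 48 lower (0.155%) than in vehicle rats. The median size of a called change was 0.74 on the log2 scale, and the smallest were a rise of 0.33 and a fall of 0.42. The called probe sets carrying exactly 1 symbol stood for 102 genes, 68 higher and 34 lower. Probe sets changed by at least 2-fold numbered 20 higher and 11 lower. In 130 of the 133 the 3 treated and 5 vehicle values did not overlap. These were 82 of the 85 higher ones, where 4.82% of all tested probe sets had every treated rat above every vehicle rat, and 48 of the 48 lower ones, where 4.18% had every treated rat below. The exceptions, all higher, were Zmynd8, Ttk and Mki67. Without any threshold on the adjusted p, 3689 probe sets (11.9%) had an unadjusted p under 0.05, where 1552.1 would be expected with no difference at all.

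The count depended on single rats and on the scaling. It was 38 without treated rat 2, 78 without treated rat 1 and 174 without treated rat 3. Leaving out vehicle rat 1, 2, 3, 4 or 5 gave 48, 59, 46, 58 and 193 calls. Centring the array medians gave 75 calls, repeating quantile normalization 221 and weighting the arrays 885. In 23 of the 133 probe sets, 17 higher and 6 lower, the call held whichever of the 8 rats was left out. They stood for 19 genes by single symbols, each of which is marked in the text as holding without any one rat.

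The gene lists used below read each gene at 1 probe set. Over all 14217 genes read that way, 63 rose (0.443%), 32 fell (0.225%) and 2044 (14.4%) had an unadjusted p under 0.05. The median change was 0.01. Each list's counts stand beside these shares as a description. The lists and their members were chosen with earlier results of these data known, so a share above these is not an independent test. Of 44 called genes with several probe sets, all probe sets passed for 1 gene, Slc6a6, and only some for 43. In none of the 44 did 2 probe sets pass in opposite directions.

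**Figure D1:**
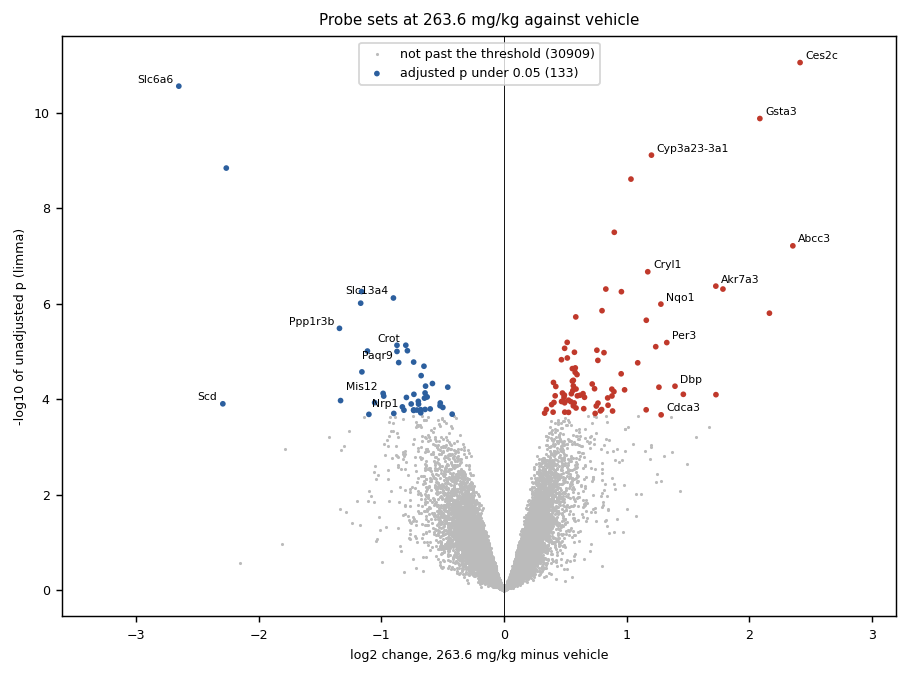
Each point is 1 of 31042 probe sets, with the log2 change at 263.6 mg/kg minus vehicle on the x axis and −log10 of the unadjusted limma p on the y axis. Red and blue points are the 85 higher and 48 lower probe sets past the adjusted threshold; names are shown for a part of the named genes where space allows. Ces2c and Gsta3 stand at the upper right, and Slc6a6, with its second probe set beside it, at the upper left.

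The 3 largest rises among single-symbol probe sets were those of Ces2c, Abcc3 and Gsta3. Ces2c, a carboxylesterase that hydrolyses ester drugs and lipids, read 8.76, 8.92, 8.75, 8.87 and 8.82 in vehicle rats 1 to 5 and 11.68, 10.99 and 11.05 in the treated rats. The lowest treated rat was above every vehicle rat by far more than the vehicle spread. The rise was 2.42 ± 0.17 (SE), or 5.33-fold (limma adjusted p = 2.75e-07), and held whichever rat was left out. Of the other 10 measured carboxylesterases and paraoxonases none passed, and the nearest was hepatic lipase, Lipc, at -0.47 ± 0.11 (adjusted p = 0.0573). The median over the 11 was -0.05, beside a median of 0.01 over all 31042 probe sets. Near-identical carboxylesterase genes could share probes, which was not tested.

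Abcc3 encodes an efflux pump of the sinusoidal membrane that exports conjugates to blood. It read 6.38, 6.36, 6.63, 6.83 and 6.72 in vehicle rats and 9.51, 8.58 and 8.72 in treated rats. Treated rat 1 stood highest, and the groups were widely apart. The rise was 2.36 ± 0.28, or 5.12-fold (limma adjusted p = 0.000238), and held without any one rat. It was the sole member past the threshold among 22 transporters, whose median change was 0.06. The canalicular pumps Abcb1a at 0.22 (adjusted p = 0.557) and Abcc2 at -0.04 (adjusted p = 0.924) did not pass.

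Of the 21 measured CAR and PXR targets 7 rose, 0 fell and 14 did not pass, with a median change of 0.22 and 13 at an unadjusted p under 0.05. Over all genes read at 1 probe set, 0.443% rose and 14.4% had such a p. The list mean was 10.88 to 11.07 in vehicle rats and 11.55, 11.48 and 11.49 in treated rats 1 to 3. Beside Ces2c and Abcc3 the list held Cyp3a23-3a1, a steroid- and drug-oxidising P450 and the classical PXR target in rat. Its values were 13.27, 13.11, 13.04, 13.37 and 13.32 in vehicle and 14.37, 14.38 and 14.53 after IDDP. The treated rats lay close together and above all vehicle rats, and the rise was 1.20 ± 0.11 (limma adjusted p = 5.99e-06). A related P450, Cyp3a18, rose by 0.82 ± 0.14 (adjusted p = 0.00972), and both P450 calls held without any one rat. Cyp3a2 read 14.39 to 14.63 in vehicle and 14.55 to 14.67 in treated rats, a difference of 0.08 (adjusted p = 0.743). Probes of Cyp3a genes may bind each other's transcripts, which was not tested.

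The same list held conjugating and oxidising enzymes. Aldh1a1, an aldehyde dehydrogenase that makes retinoic acid, read 12.30 to 12.49 in vehicle and 13.60, 13.36 and 13.36 in treated rats. Its rise of 1.04 ± 0.10 (limma adjusted p = 1.27e-05) held without any one rat, with no overlap of the groups. Ugt2b1, a glucuronosyltransferase, went from 12.46 to 12.83 in vehicle to 13.49, 13.65 and 13.46, a rise of 0.90 ± 0.10 (adjusted p = 0.000141) that also held in every case. It was the single call among 19 phase II enzymes, whose median change was 0.01 with 6 at an unadjusted p under 0.05. Outside the list, the aldehyde oxidase Aox1 rose by 0.59 ± 0.12 (adjusted p = 0.0309), a call lost without any one treated rat or without vehicle rat 2, 3 or 4 (largest adjusted p 0.0988). The members that did not pass included Cyp2c6v1 at 0.22 (adjusted p = 0.21) and Alas1, the first enzyme of haem synthesis, at -0.25 (adjusted p = 0.686).

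**Figure D2:**
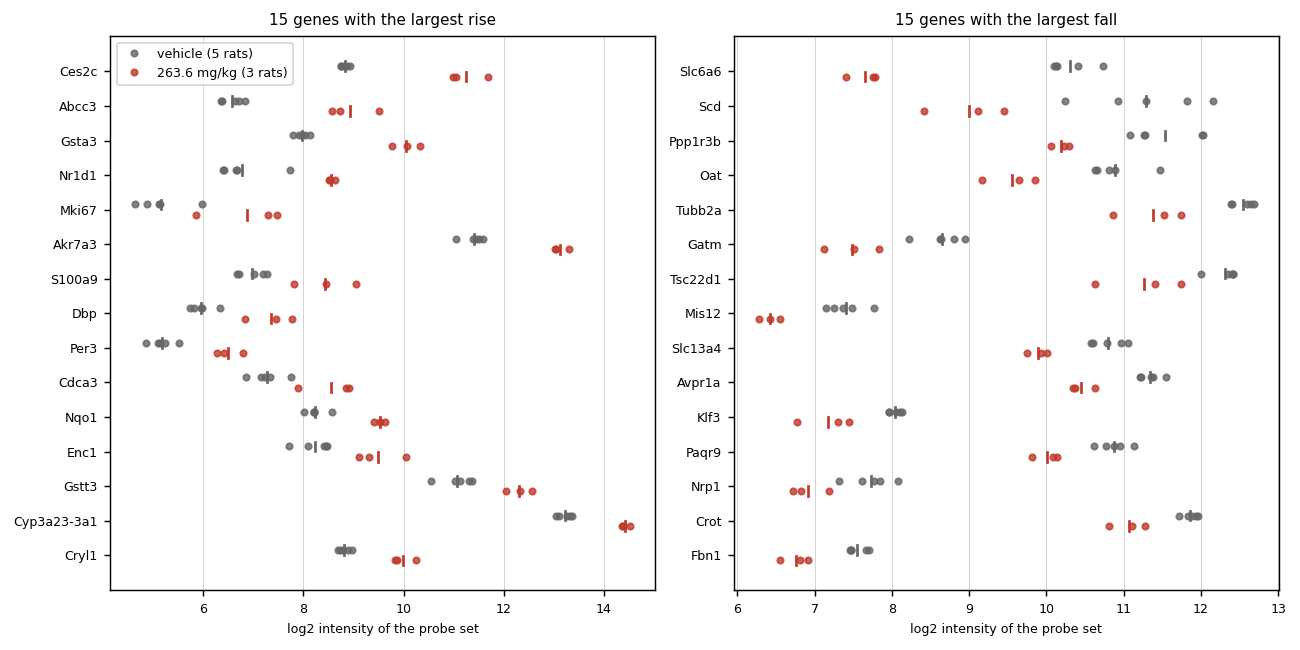
Log2 intensity (x axis) of the 15 genes with the largest rise and the 15 with the largest fall, with 1 point per rat, grey for the 5 vehicle rats and red for the 3 rats at 263.6 mg/kg. Vertical ticks are group means. The groups are apart for every gene but Mki67, in which the treated rat at 5.86 lies below the vehicle rat at 5.97.

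Glutathione transferases, which couple glutathione to electrophiles, formed the next group. Of 20 measured members 5 rose, 0 fell and 15 did not pass, with a median change of 0.16 and 9 at an unadjusted p under 0.05. Gsta3, an alpha-class transferase, read 7.78, 7.97, 8.04, 8.13 and 7.91 in vehicle rats and 10.32, 10.08 and 9.76 in treated rats. All treated rats were far above the vehicle range, and the rise was 2.09 ± 0.17, or 4.25-fold (limma adjusted p = 1.36e-06), in every leave-one-out fit. The theta-class gene Gstt3 rose by 1.24 ± 0.21 (adjusted p = 0.00914), from 10.56 to 11.37 in vehicle to 12.56, 12.33 and 12.04. That call was lost without treated rat 1 (0.0535) or treated rat 2 (0.055). Gstt1 rose by 0.57 ± 0.10 (adjusted p = 0.00972), lost without treated rat 2 (0.0875). Gsta4 rose by 0.60 ± 0.11 (0.0201), lost without treated rat 2 or 3 or vehicle rat 1 or 3 (largest 0.0828), and Mgst2 rose by 0.55 ± 0.11 (0.0339), lost without any treated rat or vehicle rats 1 to 4 (largest 0.115). Gstp1, at -0.16, and Gsta1, at 0.13, did not pass. The genes of this family are alike in sequence, and sharing of probes between them was not tested.

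Of 19 measured aldo-keto and carbonyl reductases 4 rose, 0 fell and 15 did not pass, with a median change of 0.05. The called reductase and dehydrogenase genes described next are not all members of that list. Akr7a3, an aldo-keto reductase that detoxifies aflatoxin dialdehyde, read 11.45, 11.05, 11.51, 11.39 and 11.60 in vehicle and 13.31, 13.04 and 13.03 after IDDP. The rise was 1.73 ± 0.23 (limma adjusted p = 0.00124) with no overlap, and it held without any one rat. Nqo1, the quinone reductase, read 8.20, 8.0, 8.22, 8.21 and 8.56 in vehicle and 9.63, 9.52 and 9.41 in treated rats. Its rise of 1.28 ± 0.18 (adjusted p = 0.00187) held in every case as well. Cryl1, a dehydrogenase of the gulonate pathway, went from 8.68 to 8.96 in vehicle to 10.25, 9.87 and 9.83, by 1.17 ± 0.15 (adjusted p = 0.000739), and held. Akr7a2 rose by 0.40 ± 0.08 (adjusted p = 0.0272), a call lost without treated rat 1 or 2 or vehicle rats 1 to 4 (largest 0.0876). Hsd17b2, which inactivates sex steroids, rose by 0.89 ± 0.19 (adjusted p = 0.0447), lost without treated rat 2 or 3 or vehicle rat 1, 3, 4 or 5 (largest 0.145).

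Among 31 measured NRF2 targets, 7 rose, 0 fell and 24 did not pass, with a median change of 0.29 and 15 at an unadjusted p under 0.05. The 7 were Gsta3, Abcc3, Akr7a3, Nqo1, Gsta4, Akr7a2 and Mgst2, and 2 of them, Abcc3 and Akr7a3, were also on the CAR and PXR list. Genes of glutathione and thioredoxin supply on the same list did not pass. The glutamate-cysteine ligase subunit Gclc was at -0.08 (limma adjusted p = 0.856), thioredoxin reductase Txnrd1 at 0.05 (adjusted p = 0.915) and sulfiredoxin Srxn1 at 0.12 (adjusted p = 0.769). Haem oxygenase, Hmox1, read 8.91 to 9.22 in vehicle and 10.65, 9.79 and 9.46 in treated rats. The groups did not overlap and rat 1 was the highest, but the difference of 0.89 ± 0.23 did not pass (adjusted p = 0.102).

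Among 7 measured targets of the dioxin receptor AhR, Nqo1 was the only one past the threshold and the median change was -0.05. Cyp1a1, the most inducible P450 of that receptor, read 5.51 to 5.84 in vehicle and 6.91, 5.86 and 6.14 in treated rats, a difference of 0.61 ± 0.27 (limma adjusted p = 0.371). Cyp1a2 differed by -0.32 ± 0.11 (adjusted p = 0.211).

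The largest fall was in Slc6a6, the sodium-dependent transporter that takes taurine into cells. It read 10.41, 10.73, 10.09, 10.13 and 10.13 in vehicle rats and 7.41, 7.78 and 7.76 in treated rats. The treated rats were close to each other and far below every vehicle rat. The fall was 6.28-fold, a log2 change of -2.65 ± 0.20 (limma adjusted p = 4.3e-07), and held without any one rat. A second probe set of the gene fell by 2.26 ± 0.21 (adjusted p = 8.94e-06), from 7.12 to 8.23 in vehicle to 5.27, 5.43 and 5.43, and held too. Of the other 17 measured genes of taurine and sulfur amino acid metabolism none passed. Cth, which makes cysteine from cystathionine, was at -0.62 (adjusted p = 0.0869). Csad, an enzyme of taurine synthesis, was at 0.24 (adjusted p = 0.364). The list's median was -0.10, with 8 of 18 at an unadjusted p under 0.05.

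The starts of called genes were searched for the antioxidant response element core (TGACNNNGC), the E-box (CACGTG), the D-box (TTANGTAA) and the core bound by REV-ERB and ROR (TAGGTCA), on both strands. The windows ran from 250 bases before to 50 bases after each gene's start (RefSeq, GRCr8), and 83 of the 102 called genes were matched. The antioxidant core was in 7 of 52 windows of higher genes (13.5%) and 6 of 31 of lower genes (19.4%), beside 12.2% of all 27457 windows. The E-box was in 4 higher (7.69%) and 3 lower (9.68%) windows, beside 6.65% of all. The D-box was in 1 higher window (1.92%) and 0 lower, beside 2.19%, and the REV-ERB and ROR core in 0 of either, beside 2.60%. A match is a string of letters, not a shown binding site. The windows around the antioxidant cores of the glutathione transferase of largest rise and of the gene of largest fall are shown because the same core lies near the starts of genes that moved in opposite directions. Both are written on the gene's own strand, with the match in capitals.
Gsta3 (chr9:31154952-31155000, plus strand of GRCr8, match starting 17 bases before the gene start): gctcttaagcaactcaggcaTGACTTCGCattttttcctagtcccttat
Slc6a6 (chr4:125752381-125752429, plus strand of GRCr8, match on the opposite strand, starting 101 bases before the gene start): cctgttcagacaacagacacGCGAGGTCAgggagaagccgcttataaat
In the Slc16a1 window, an antioxidant core and an E-box share bases.

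Slc13a4 and Slc16a1, which are on none of the lists, also fell. Slc13a4, a sodium-sulfate cotransporter, read 10.58 to 11.05 in vehicle and 9.74, 10.01 and 9.93 in treated rats. Its fall, a change of -0.90 ± 0.13 (limma adjusted p = 0.00157), held without any one rat. Slc16a1, the monocarboxylate transporter MCT1, changed by -0.64 ± 0.12 (adjusted p = 0.0295), a call lost without any treated rat or vehicle rat 2, 3 or 4 (largest 0.0886). A second Slc16a1 probe set was at 0.17 (adjusted p = 0.531).

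Of 27 measured genes of fatty acid synthesis, 1 fell, Scd, 0 rose and 26 did not pass, with a median change of -0.19 and 9 at an unadjusted p under 0.05. Scd, the stearoyl-CoA desaturase that makes monounsaturated fatty acids, read 11.29, 11.82, 12.15, 10.24 and 10.92 in vehicle and 9.12, 9.45 and 8.41 in treated rats. The vehicle rats were widely spread, yet the groups did not overlap. The fall was 4.90-fold, a change of -2.29 ± 0.48 (limma adjusted p = 0.0387), and was lost without any treated rat or vehicle rat 1, 2 or 3 (largest 0.109). Srebf1, whose product switches on lipogenic genes, changed by -0.74 ± 0.16 on one probe set (adjusted p = 0.044) and by -0.72 on the other (adjusted p = 0.115). The first call was lost without any treated rat or vehicle rat 1, 2 or 3 (largest 0.183). Fatty acid synthase itself, Fasn, read 10.25 to 11.31 in vehicle and 10.61, 10.85 and 9.80 in treated rats, a difference of -0.20 (adjusted p = 0.801).

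Plin2, which coats lipid droplets, was 12.98 to 13.53 in vehicle and 12.28, 12.54 and 12.69 after IDDP. Its change of -0.74 ± 0.16 (limma adjusted p = 0.044) was lost without treated rat 1 or 2 or vehicle rats 1 to 4 (largest 0.194). A second probe set of the gene was at -0.52 (adjusted p = 0.247). Plin2 was the only call among 41 measured PPARalpha targets, of which 10 had an unadjusted p under 0.05 and the median change was 0.02. Cyp4a1, a P450 strongly raised by PPARalpha ligands in rats, was at 0.08 (adjusted p = 0.868). Crot, the peroxisomal carnitine octanoyltransferase, fell by 0.80 ± 0.13 (adjusted p = 0.00886), a call lost without treated rat 2 (0.0744). Other Crot probe sets were at -1.04 (adjusted p = 0.171) and -0.10 (adjusted p = 0.743). None of 20 measured cholesterol genes and none of 14 bile acid synthesis genes passed, with 2 and 4 at an unadjusted p under 0.05 and medians of -0.05 and -0.12.

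Ppp1r3b, the glycogen-targeting subunit of protein phosphatase that promotes glycogen synthesis, fell. It read 12.02, 11.27, 12.01, 11.28 and 11.08 in vehicle rats and 10.30, 10.22 and 10.05 in treated rats. All treated rats were below the lowest vehicle rat, with a narrow spread among them. The change was -1.34 ± 0.21 (limma adjusted p = 0.00462) and held without any one rat. A second probe set of the gene was at -0.46 ± 0.17 (adjusted p = 0.275). In the list of gluconeogenesis, glycogen and glucose handling, with 19 measured genes, the other call was a rise of Pck2, the mitochondrial PEP carboxykinase, by 0.58 ± 0.11 (adjusted p = 0.0164), lost without treated rat 2 (0.0959) or vehicle rat 3 (0.0555). A second Pck2 probe set was at 0.06 (adjusted p = 0.87). The cytosolic form Pck1 was at 0.09 (adjusted p = 0.906), and the list's median was -0.12.

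Oat and Gatm, enzymes of amino acid metabolism, were among the 15 largest falls. Oat, ornithine aminotransferase, a marker of hepatocytes near the central vein, changed by -1.33 ± 0.28 (limma adjusted p = 0.0376), from 10.63 to 11.47 in vehicle to 9.17, 9.86 and 9.65. That call was lost without any treated rat or vehicle rats 1 to 4 (largest 0.168). Gatm, the first enzyme of creatine synthesis, changed by -1.16 ± 0.21 (adjusted p = 0.0189), lost without treated rat 1 or 2 or vehicle rat 1 or 4 (largest 0.101). A second Gatm probe set was at 0.14 (adjusted p = 0.745). The pericentral list of 15 genes had 1 rise, Aldh1a1, and 1 fall, Oat, with a median of -0.18 and 9 members at an unadjusted p under 0.05. The periportal list of 17 genes had no call, a median of -0.18 and 6 members at an unadjusted p under 0.05.

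Tubb2a, a beta-tubulin of microtubules, read 12.60, 12.40, 12.65, 12.69 and 12.39 in vehicle and 11.75, 11.52 and 10.87 in treated rats. Treated rat 3 was the lowest, and no treated rat reached the vehicle range. The change was -1.17 ± 0.17 (limma adjusted p = 0.00187) and held without any one rat. Among 11 measured tubulins it was the only call, Tuba4a was at -0.71 ± 0.17 (adjusted p = 0.0642) and the median was -0.09.

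Of the 18 measured clock genes and outputs 4 rose, namely Nr1d1, Nr1d2, Dbp and Per3, and 0 fell. Nr1d1, which encodes REV-ERB alpha, read 6.42, 7.72, 6.66, 6.67 and 6.39 in vehicle and 8.64, 8.53 and 8.50 in treated rats. Vehicle rat 2 stood above the other vehicle rats but below all treated rats. The rise was 1.79 ± 0.24, or 3.45-fold (limma adjusted p = 0.00124), and held without any one rat. Nr1d2, the REV-ERB beta gene, read 8.14, 9.18, 8.40, 8.38 and 8.32 in vehicle and 9.48, 9.39 and 9.45 in treated rats, again with vehicle rat 2 the highest of its group. Its rise of 0.96 ± 0.18 (adjusted p = 0.0199) was lost without treated rat 1 or 2 or vehicle rat 1, 3 or 4 (largest 0.0742). Other Nr1d2 probe sets were at 0.48 (adjusted p = 0.355) and -0.03 (adjusted p = 0.937).

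Dbp, a clock output factor that binds D-boxes, read 5.80, 6.34, 5.96, 5.97 and 5.73 in vehicle and 6.84, 7.77 and 7.46 in treated rats. The groups did not overlap, and the rise of 1.39 ± 0.27 (limma adjusted p = 0.0295) was lost without treated rat 2 or 3 or vehicle rat 1, 3 or 4 (largest 0.152). Per3, a period gene, rose by 1.33 ± 0.22 (adjusted p = 0.00844), from 4.85 to 5.51 in vehicle to 6.27, 6.80 and 6.42, and lost its call without treated rat 2 (0.0726). A second Per3 probe set was at -0.03 (adjusted p = 0.951). Of the 18, 14 did not pass, with 10 at an unadjusted p under 0.05 and a median of -0.02. Bmal1, the activator, was at -0.55 ± 0.19 (adjusted p = 0.229), Npas2 was at -0.58 ± 0.28 (adjusted p = 0.424) and Per2 at -0.04 (adjusted p = 0.925). The labels used here give no time of day for the sampling of any rat, and the part of sampling time in these values was not tested.

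Of 40 measured cell cycle genes 3 rose and 36 had a change above 0, with unequal values between the treated rats. The called division genes described next are not all members of that list. Mki67, the Ki-67 proliferation marker, read 4.64, 5.12, 5.13, 4.87 and 5.97 in vehicle and 5.86, 7.47 and 7.30 in treated rats. Rats 2 and 3 were well above vehicle, while treated rat 1 lay within the vehicle range. The rise was 1.73 ± 0.35 (limma adjusted p = 0.0339) and was lost without treated rat 2 or 3 or vehicle rats 1 to 4 (largest 0.165). Prc1, which bundles the microtubules of the dividing cell's midzone, rose by 1.16 ± 0.25 (adjusted p = 0.044), lost without the same rats (largest 0.166). Cdca3, a cell division protein, rose by 1.28 ± 0.28 (adjusted p = 0.0498), also lost without the same rats (largest 0.189). Bub1b, a spindle checkpoint kinase, rose by 0.57 ± 0.11 (adjusted p = 0.0295), lost without any treated rat or vehicle rat 1, 2 or 3 (largest 0.101).

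On the cell cycle list of 40 genes, 3 rose, 0 fell and 37 did not pass, while 26 had an unadjusted p under 0.05 and the median was 0.61. Over all genes read at 1 probe set 53.7% had a change above 0. The list mean was 6.33 to 6.65 in vehicle rats and 6.53, 7.07 and 7.32 in treated rats 1 to 3, so that rat 1 lay inside the vehicle range. Aurka, Hmmr and Kif11, which serve the mitotic spindle, each missed the threshold at an adjusted p of 0.0504 in limma. The replication genes on the list included Mcm4 at 0.04 (adjusted p = 0.94) and Pcna at -0.07 (adjusted p = 0.874). Both were named after their values were seen and do not stand for the list's replication genes as a whole. The list members that did not pass had a median of 0.57. Outside the list, Tk1, the thymidine kinase that supplies DNA synthesis, rose on 2 probe sets, by 0.62 ± 0.13 (adjusted p = 0.0339) and 0.65 ± 0.14 (adjusted p = 0.044), and another probe set was at 0.27 (adjusted p = 0.263). Both calls were lost without treated rat 2 or 3 or vehicle rats 1 to 4 (largest 0.182). Foxm1, a transcription factor of mitotic genes, rose by 0.60 ± 0.12 (adjusted p = 0.0339), lost without any treated rat or vehicle rat 1 or 4 (largest 0.116). Another Foxm1 probe set was at -0.08 (adjusted p = 0.794). Ccnd1, cyclin D1, was 9.50 to 10.83 in vehicle and 8.61, 9.03 and 9.83 in treated rats, a difference of -1.03 ± 0.31 that did not pass (adjusted p = 0.16).

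**Figure D3:**
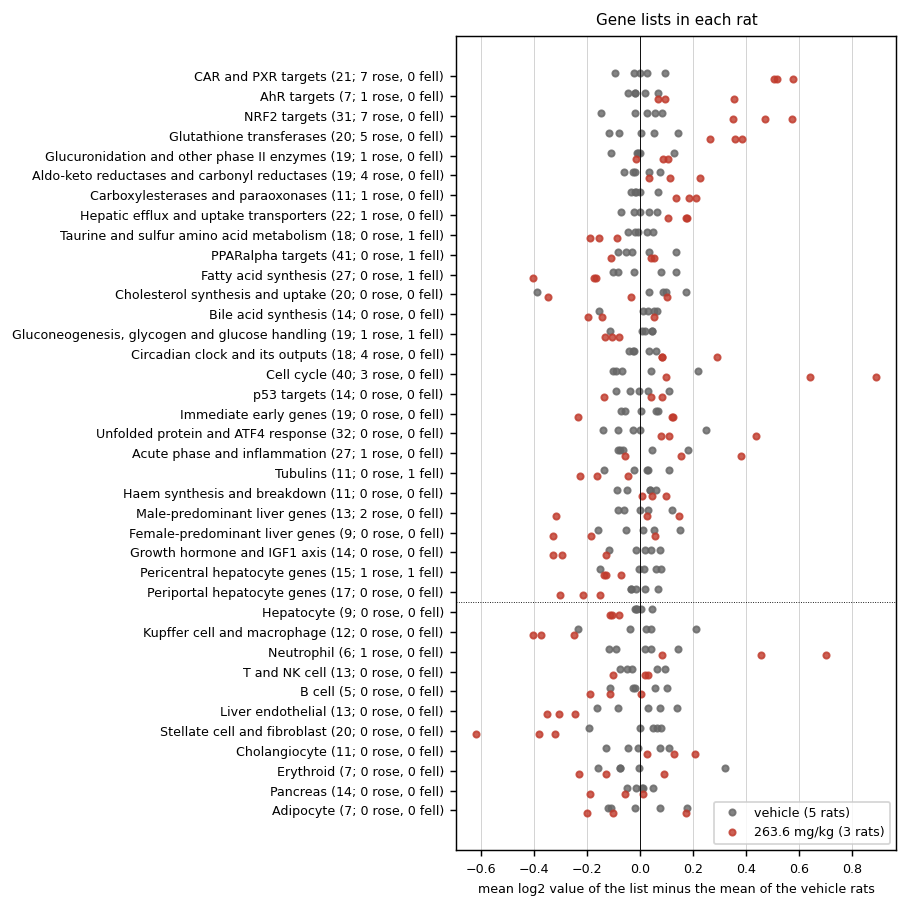
Mean log2 value of each gene list (rows, with measured genes and how many rose or fell) minus the mean of the vehicle rats (x axis), 1 point per rat, grey for vehicle and red for 263.6 mg/kg. Lists above the dotted line are pathways and those below it cell type markers. The 3 treated rats are to the right of all vehicle rats for CAR and PXR targets, NRF2 targets and glutathione transferases. The same holds for carboxylesterases and paraoxonases, hepatic transporters and the clock list. They are to the left of all vehicle rats for the taurine, fatty acid synthesis, growth hormone, periportal, hepatocyte, Kupffer cell, endothelial and stellate lists. Treated rat 1 is within the vehicle range for the cell cycle list. The means include called members, and a single large change can move them. Members that did not pass had medians of 0.05, 0.21 and 0.08 for CAR and PXR targets, NRF2 targets and glutathione transferases. These medians were -0.07, 0.05 and -0.20 for carboxylesterases and paraoxonases, hepatic transporters and the clock list, and -0.08 for the taurine list.

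S100a9, a calcium-binding protein abundant in neutrophils, read 7.20, 7.26, 6.72, 6.68 and 7.02 in vehicle and 9.06, 8.45 and 7.81 in treated rats. The groups did not overlap, and the rise of 1.46 ± 0.30 (limma adjusted p = 0.0339) was lost without treated rat 1 or 2 or vehicle rats 1 to 4 (largest 0.166). Its partner S100a8 read 5.00 to 5.55 in vehicle and 6.74, 6.78 and 5.65 in treated rats, a difference of 1.19 ± 0.33 (adjusted p = 0.117). Stfa2l2, a stefin-like gene, rose by 0.98 ± 0.19 (adjusted p = 0.0314), lost without treated rat 1 or 2 or vehicle rats 1 to 4 (largest 0.157). Of 6 measured neutrophil markers S100a9 alone passed. The list mean was 5.42 to 5.68 in vehicle and 6.23, 5.99 and 5.61 in the treated rats, and Csf3r, Cxcr2 and Mmp8 were at 0.17, 0.20 and -0.03. The part of neutrophil number in these values was not tested. Among 27 acute phase and inflammation genes S100a9 was also the only call, with a median of 0.03.

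Apart from S100a9, no marker of cells other than hepatocytes passed. All 12 Kupffer cell and macrophage markers and all 13 liver endothelial markers had a change below 0, with medians of -0.29 and -0.34. Of each list 7 had an unadjusted p under 0.05, and 0 passed in limma. The 20 stellate cell and fibroblast markers had a median of -0.42, 14 had an unadjusted p under 0.05, and 0 passed. The stellate list mean was 7.65 to 7.92 in vehicle and 7.46, 7.22 and 7.52 in treated rats, with the retinol esterase Lrat at -0.94 ± 0.21 (adjusted p = 0.0573). In whole liver RNA, fewer cells of a type and less RNA per cell cannot be told apart. T and NK cell, B cell, cholangiocyte, erythroid, pancreas and adipocyte lists also had 0 calls, with medians from -0.05 to 0.11 and 2, 0, 2, 0, 2 and 1 members at an unadjusted p under 0.05.

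Matrix and stromal genes outside the marker lists were among the 34 genes that fell. Fbn1, the microfibril protein fibrillin, read 7.46 to 7.70 in vehicle and 6.80, 6.56 and 6.91 in treated rats. Its change of -0.79 ± 0.16 (limma adjusted p = 0.034) was lost without treated rat 1 or 2 or vehicle rats 1 to 4 (largest 0.164). The collagen genes Col5a2 and Col6a3 changed by -0.68 (adjusted p = 0.0472) and -0.64 (adjusted p = 0.044), and the basement membrane gene Nid1 by -0.63 (adjusted p = 0.034). Nrp1, a co-receptor for vascular growth factor, changed by -0.82 ± 0.18 (adjusted p = 0.044). These 4 calls were each lost without treated rat 1 or 2 or vehicle rats 1 to 4, and Col6a3 also without treated rat 3, with largest adjusted p-values of 0.21 for Col5a2, 0.189 for Col6a3, 0.145 for Nid1 and 0.179 for Nrp1. Second probe sets of these genes did not pass: Nid1 was at 0.13 (adjusted p = 0.72), Col6a3 at 0.02 (0.975), Nrp1 at -0.05 (0.95), Col5a2 at -0.28 (0.441) and Fbn1 at -0.43 (0.396). The lower stellate and endothelial markers moved with them, and their part in these falls was not tested.

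Further genes on none of the lists fell. Avpr1a, the hepatic vasopressin receptor, changed by -0.90 ± 0.20 (limma adjusted p = 0.0475), a call lost whichever of the 8 rats was left out (largest 0.165). Agtr1a, the angiotensin II receptor, changed by -0.71 ± 0.15 (adjusted p = 0.044), lost without any rat but treated rat 3 (largest 0.208). Its other probe set was at -0.84 (adjusted p = 0.143). Klf3, a transcriptional repressor, fell by 0.87 ± 0.15 (adjusted p = 0.00886), lost without treated rat 1 alone (0.0506). Its other probe sets were at -0.25 (adjusted p = 0.599) and -0.24 (adjusted p = 0.484). Paqr9, a membrane receptor of the progestin and adipoQ family, fell by 0.86 ± 0.15 (adjusted p = 0.0135), lost without treated rat 1 (0.077). Tsc22d1, a leucine zipper factor, changed by -1.05 ± 0.22 (adjusted p = 0.038), and Mis12, a kinetochore protein, by -0.99 ± 0.20 (adjusted p = 0.0339). The Tsc22d1 call was lost without treated rat 1 or 3 or vehicle rat 1, 2, 3 or 5 (largest 0.192). Other Tsc22d1 probe sets were at 0.19 (adjusted p = 0.69), -0.01 (0.981) and 0.01 (0.974). The Mis12 call was lost without treated rat 1 or 2 or vehicle rat 2, 3 or 4 (largest 0.147).

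Further rises held without any one rat. Chmp4c, a membrane-scission protein used in the last step of cell division, rose by 1.16 ± 0.18 (limma adjusted p = 0.00327), from 6.79 to 7.36 in vehicle to 7.61, 8.22 and 8.68. Caprin2 rose by 0.96 ± 0.13 (adjusted p = 0.00124), Cpne8, a calcium-dependent phospholipid binder, by 0.80 ± 0.12 (adjusted p = 0.00241) and the raft protein gene Flot2 by 0.59 ± 0.09 (adjusted p = 0.00293). Cers6, a ceramide synthase, rose by 1.09 ± 0.19 (adjusted p = 0.0135) and lost its call without treated rat 2 (0.0828). Enc1 rose by 1.26 ± 0.25 (adjusted p = 0.0295), lost without treated rat 1 or 2 or vehicle rat 1 or 3 (largest 0.152). Other Enc1 probe sets were at 0.28 (adjusted p = 0.349), 0.00 (0.994) and -0.08 (0.821). Other Cpne8 probe sets were at 0.57 (adjusted p = 0.144) and 0.13 (0.848).

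Several pathways had no call in limma. The lists of 14 p53 targets, 19 immediate early genes, 32 genes of the unfolded protein and ATF4 response, 11 haem genes, 9 female-predominant genes and 14 growth hormone and IGF1 genes gave 0 calls each, with 1, 0, 7, 4, 5 and 2 members at an unadjusted p under 0.05. Their medians were 0.05, 0.10, 0.12, -0.00, -0.08 and -0.08. Prlr, the prolactin receptor, which is female-predominant in rat liver, missed the threshold at -0.93 ± 0.21 (adjusted p = 0.0504). Of 13 male-predominant genes 2 rose, Cyp3a18 and Hsd17b2, with a median of -0.09.

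The 3 treated rats contributed unequally. Rat 1 was the farthest from the vehicle mean in 63 of the 133 called probe sets, rat 2 in 48 and rat 3 in 22. Rat 1 was the nearest in 41, rat 2 in 37 and rat 3 in 55, so rat 1 was often at either end. The median size of the called changes was 0.73, 0.74 and 0.64 in rats 1, 2 and 3.

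The other doses place these genes in the series, with each change taken against the same 5 vehicle rats. The number of probe sets past the threshold was 2 at 66 mg/kg (0.00644%), 21 at 132 (0.0677%), 520 at 527.1 (1.68%) and 1024 at 1054.2 mg/kg (3.30%). The change of Ces2c was 0.72, 1.60, 2.42, 2.56 and 3.60 from 66 to 1054.2 mg/kg, so it was larger at each higher dose. Slc6a6 changed by -1.03, -1.28, -2.65, -3.18 and -3.86. Dbp changed by 0.36, 0.43, 1.39, 3.29 and 3.44, so most of its change lay above 263.6 mg/kg. By group means, 61 of the 133 called probe sets were farthest from vehicle at 263.6 mg/kg, 22 at 527.1 and 50 at 1054.2 mg/kg. The 133 were chosen by their change at 263.6 mg/kg, which favours that dose in this count. Ppp1r3b and S100a9 are examples of the 61. Ppp1r3b changed by -0.29, -0.52, -1.34, -0.53 and -0.04, and S100a9 by -0.03, -0.02, 1.46, -0.16 and -0.30. At 132 mg/kg S100a9 read 7.15, 7.74 and 5.98, beside 6.68 to 7.26 in vehicle rats. Rat 2 of that dose lay above the vehicle range and rat 3 below it, which the mean hides. S100a8 read 5.69, 6.66 and 4.39 in the same 3 rats, beside 5.00 to 5.55 in vehicle rats. Mki67 changed by 0.82, 1.19, 1.73, 2.13 and 1.06, and was farthest at 527.1 mg/kg.

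**Figure D4:**
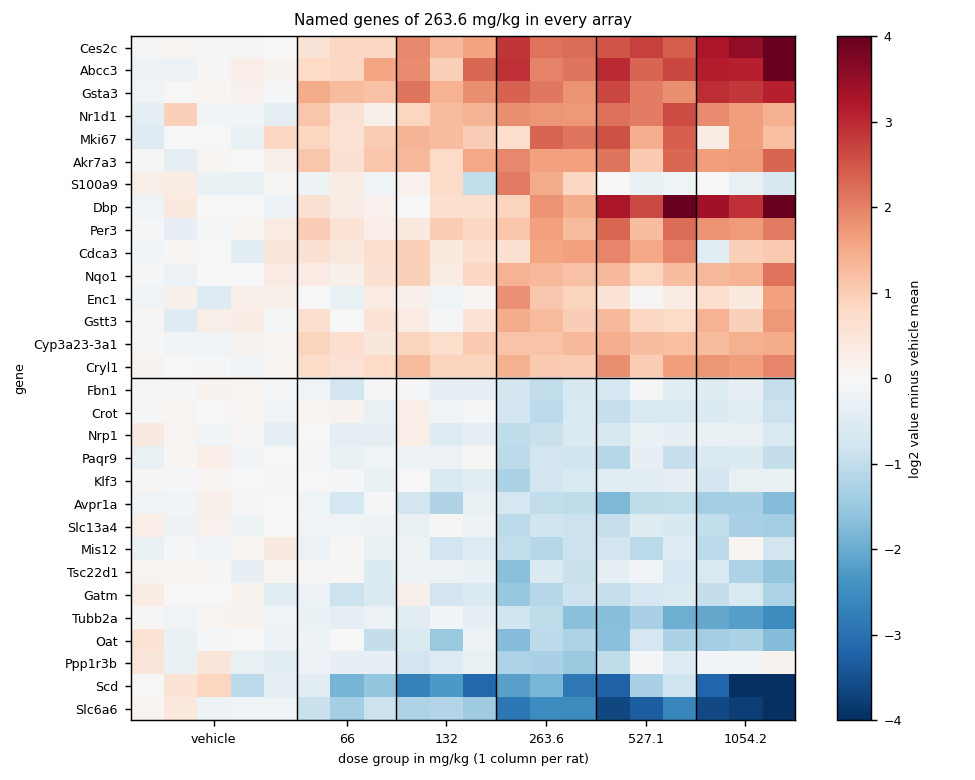
Log2 value minus the vehicle mean (colour scale, from -4 to 4, with larger values shown at the end colour) for the 30 genes of largest rise or fall at 263.6 mg/kg (rows) in every one of the 20 arrays (columns, grouped by dose in mg/kg). Ces2c, Abcc3 and Gsta3 deepen in red and Slc6a6 in blue toward 1054.2 mg/kg, whereas S100a9 is red in the 263.6 mg/kg columns and pale at both higher doses.

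Differences between 263.6 mg/kg and its neighbouring doses were tested directly in the same fit. Against 132 mg/kg, 0 probe sets passed in limma and 2890 (9.31%) had an unadjusted p under 0.05. The smallest adjusted p there was 0.172, which was also that of Slc6a6, which was lower by a change of -1.37 ± 0.22. Against 527.1 mg/kg, 0 passed and 1809 (5.83%) had an unadjusted p under 0.05. The smallest adjusted p was 0.0754, that of Dbp, which was higher at 527.1 mg/kg by 1.90 ± 0.30. With 3 rats a group, these misses do not show that the doses acted alike. A fit with the 3' minus 5' difference as covariate gave 2 calls against 132 mg/kg, and leaving out treated rat 2 gave 1. Against 527.1 mg/kg, leaving out rat 2 of that dose gave 2 calls and leaving out rat 3 of 263.6 mg/kg gave 1.

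The contrast of 1054.2 with 263.6 mg/kg was added after the data were seen. In limma it gave 56 calls (0.180%), 34 higher (0.110%) and 22 lower (0.0709%) at the top dose, and 8 of the 56 had also been called at 263.6 mg/kg against vehicle. These contrasts share the 263.6 mg/kg arrays with the vehicle comparison. The count was 12 to 120 with 1 rat left out: 120, 26 and 12 without rats 1, 2 and 3 of 1054.2 mg/kg, and 32, 14 and 56 without rats 1, 2 and 3 of 263.6 mg/kg. Fitted on these groups alone it was 2, and with array weights 2217.

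Ppp1r3b was 10.30, 10.22 and 10.05 at 263.6 mg/kg and 11.41, 11.41 and 11.66 at 1054.2 mg/kg, higher there by 1.30 ± 0.23 (limma adjusted p = 0.0207). S100a9 was lower at the top dose, by a difference of -1.77 ± 0.33 (adjusted p = 0.0263). Dbp was higher by 2.05 ± 0.30 (0.00556), Ces2c by 1.19 ± 0.19 (0.00912), and Slc6a6 and Tubb2a were lower, at -1.21 ± 0.22 (0.0251) and -1.09 ± 0.19 (0.0142). Other genes were near vehicle at 263.6 mg/kg and differed at 1054.2 mg/kg. Akr1b7, an aldo-keto reductase, was 5.06, 4.23 and 4.96 at the middle dose and 7.46, 6.23 and 7.12 at the top dose, a difference of 2.18 ± 0.27 (0.00101). Abcb1a, the P-glycoprotein pump, was higher by 1.38 ± 0.15 (0.000468) and Gclc by 0.98 ± 0.14 (0.00486).

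Prlr moved from below to above the vehicle mean, with a difference of 1.46 ± 0.23 (limma adjusted p = 0.00829) between the top and the middle dose. Npas2, a partner of Bmal1, read 7.98, 8.22 and 8.23 at 263.6 mg/kg and 6.13, 7.13 and 4.99 at 1054.2 mg/kg. It was lower at the top dose by a difference of -2.06 (adjusted p = 0.00648). The cell cycle inhibitor Cdkn1a was 10.61, 10.22 and 9.41 at the middle dose and 8.23, 8.20 and 8.08 at the top dose, a difference of -1.91 (adjusted p = 0.00383).

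**Figure D5:**
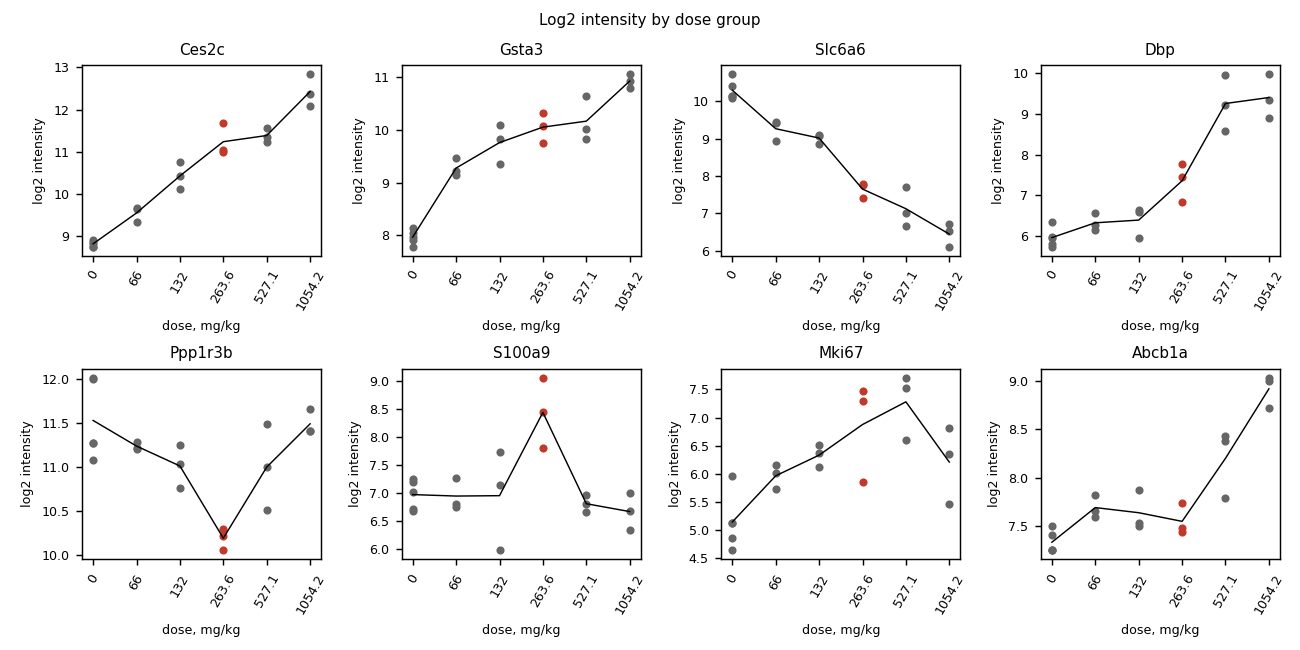
Log2 intensity (y axis, a separate range per gene) of 8 genes by dose group in mg/kg (x axis, evenly spaced categories), 1 point per rat, with 263.6 mg/kg in red and a line through the group means. Ces2c and Gsta3 climb and Slc6a6 falls over all doses, Ppp1r3b is lowest and S100a9 highest at 263.6 mg/kg, and Abcb1a is near vehicle at 263.6 mg/kg and high at 1054.2 mg/kg.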

How the data were processed

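The authors deposited log2 values per probe set for 20 arrays, which the submitters' processing notes say were made with RMA. Its version, and the set of arrays it normalised jointly, are not given here because no source used states them. From it, 57 control probe sets were left out and 31042 tested with no filter on brightness. Symbols came from the array's GEO annotation, which can be old: 20826 probe sets carried 1 symbol, 436 several and 9780 are unnamed here; 20758 were matched to RefSeq (GRCr8) by Entrez identifier, with 0 symbols updated. Genes were named only from probe sets with 1 symbol.

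In limma 3.58.1 (R 4.3.3) each dose group had its own mean and the spread came from all 20 arrays, on 14 residual degrees of freedom and a prior worth 5.75. P-values are two-sided and Benjamini-Hochberg adjusted over the 31042 probe sets; calls are those under 0.05. Changes carry standard errors, group means standard deviations. Depth does not apply to arrays; their number limits the precision.

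The rule for named genes took the 15 largest rises and 15 largest falls past the threshold, with all 3 treated rats on the same side of the vehicle mean. It also took every list member past the threshold, or the one of smallest p where none passed, and the 5 largest in each direction for dose contrasts. Other called genes may also be named. Not every gene under the rule is described above. Myc (1.50), Dhrs7l1 (-1.75) and Angptl4 (-1.42), among the 5 largest between 1054.2 and 263.6 mg/kg, are given only here. The smallest-p members of some lists are not named. Gclc is named in the 1054.2 mg/kg contrast beyond the 5 largest. List members that did not pass and are named beyond this rule, such as Fasn, Gclc and Per2, were chosen after their values were seen. The 38 lists (579 measured genes, 61 in more than 1 list) were read at each gene's probe set of highest mean. The members and lists were chosen with earlier results of these data known. Scripts were tested on simulated data. Alternatives were: dim probe sets left out, a single probe set for each gene, centring of array medians, a repeat of quantile normalization, a fit on the compared groups only, limma-trend with robust moderation, array weights, the 3' minus 5' difference as covariate, the replicate number as a block, and each array left out in turn. The replicate block was fitted on rats 1 to 3 of the compared groups only. Raw scans and toxicological measures were not analysed here.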

Additional observations from a re-analysis of the deposited data

Results flagged for a closer look

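In 12 of 122 probe sets checked, 1 vehicle rat stood apart from the other 4; chance flags about 5 in 100 such groups. Vehicle rat 5 was the highest for the division genes Prc1 (7.05, others 6.61 to 6.67), Ttk (4.79, others 4.21 to 4.36) and Reep4 (8.86, others 8.44 to 8.52), and for Cep20 (8.73, others 8.65 to 8.67). Vehicle rat 2 was the highest for the clock repressors Nr1d1 (7.72, others 6.39 to 6.67) and Nr1d2 (9.18, others 8.14 to 8.40) and for Hsd17b2 (10.86, others 10.34 to 10.45). Vehicle rat 4 was the lowest for Tsc22d1 (12.00, others 12.35 to 12.41) and the highest for Gsta4 (11.53, others 11.39 to 11.43). Vehicle rat 1 was the lowest for Asxl1 (7.42, others 7.76 to 7.89) and the highest for Cth (13.73, others 13.36 to 13.44), and vehicle rat 3 the lowest for Epcam (8.96, others 9.26 to 9.32).

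Among the genes called at 263.6 mg/kg, 6 named genes differed between 1054.2 and 263.6 mg/kg by the test of that difference in limma. Ppp1r3b was higher at the top dose by 1.30 (adjusted p = 0.0207), Dbp by 2.05 (adjusted p = 0.00556) and Ces2c by 1.19 (adjusted p = 0.00912). Slc6a6 differed by -1.21 (adjusted p = 0.0251), Tubb2a by -1.09 (adjusted p = 0.0142) and S100a9 by -1.77 (adjusted p = 0.0263).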

How the results depend on the processing

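The count of 133 probe sets at 263.6 mg/kg against vehicle became 75 with array medians centred (54 higher, 21 lower), 221 with quantile normalization repeated, 885 with array weights (132 of the 133 among them) and 56 without the 2 arrays of highest 3' minus 5' difference, an alternative chosen after seeing the data. Those 2 arrays were rat 2 of 132 mg/kg (3.25) and treated rat 2 (2.47), so only the second was among the arrays compared. Leaving out 1 array gave 38 to 193. The count of 133 stayed within 1.5 times with 1 probe set per gene (143), the 3' minus 5' covariate (153), dim probe sets left out (169), the groups compared only (165), limma-trend (129) and the replicate block (107, of which 49 were shared). The replicate block fit used only rats 1 to 3 of the compared groups. It thus left out vehicle rats 4 and 5 and the other doses as well as adding the block. Array weights were highest for 1 array of 1054.2 mg/kg at 6.724 and lowest for treated rat 1 at 0.39. Against 132 mg/kg the count of 0 became 2 with the covariate and 0 to 1 with 1 array left out. Against 527.1 mg/kg the count of 0 became 2 with 1 probe set per gene, 1 with the groups compared only, 1 with the replicate block and 0 to 2 with 1 array left out. The count of 56 for 1054.2 against 263.6 mg/kg became 2217 with array weights, 2 with these groups only, 14 with the replicate block and 12 to 120 with 1 array left out. Where a count moved, the cause was not tested. The leave-one-out fits also had fewer arrays, and the part of that in their counts was not tested either. The labels do not say that equal replicate numbers pair rats, and the deviations of same-numbered rats at 263.6 mg/kg and vehicle correlated at 0.012, -0.003 and -0.173. For 263.6 and 132 mg/kg they correlated at -0.201, 0.472 and 0.225, for 527.1 and 263.6 at 0.17, 0.086 and 0.148, and for 1054.2 and 263.6 at 0.329, 0.44 and -0.053. Each contrast has at least 1 pair below 0.1, so the numbers were not taken as pairs. Yet each of the 3 rats at 527.1 mg/kg correlated best with its own number at 263.6 mg/kg. So did rats 2 and 3 of 263.6 mg/kg with 132 mg/kg, and rats 1 and 2 of 1054.2 mg/kg with 263.6 mg/kg. Against vehicle rats 1 to 3, no rat of 263.6 mg/kg did. These matches are a hint from the data and not from the design. In the 122 named probe sets no direction reversed; 1477 values kept their side of the threshold, 668 lost it and 30 gained it. Of the list medians 394 moved by less than the spread between rats and 24 by more. The 3' minus 5' difference of 0.280 stayed without a call in each alternative and was 0.003 without treated rat 2. The number of arrays limits the precision: 15 of the called probe sets were dim in vehicle rats.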
